A study of Mus musculus with 6 samples.

Results

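Of the 54532 genes in the deposited expression table of mouse bone-marrow-derived macrophages (BMDMs), 9 genes of coagulation and plasminogen activation were described, namely F3, F7, F10, F2r, Plau, Plaur, Serpinb2, Thbd and Procr. They were chosen by name, with earlier results of these data known. Each symbol matched 1 row of the table, whose gene positions are those of the genome build GRCm38. The macrophages came from wild-type C57BL/6 mice and had been grown from bone marrow cells in medium conditioned by L929 cells. They were left untreated (Untr, 2 libraries), stimulated for 2 h with 100 ng/ml lipopolysaccharide (LPS, 2 libraries), or kept with metformin at 5 mM over 6 h before LPS was added as above (Met + LPS, 2 libraries). LPS is a cell-wall component of Gram-negative bacteria and metformin a drug against type-2 diabetes. No library of cells given metformin without LPS was analysed here, so that an effect of the drug alone and an effect on the LPS response cannot be told apart.

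Coagulation starts when tissue factor, the product of F3, appears on a cell surface and binds factor VII, and the pair then activates factor X to make thrombin. Thrombin acts on cells through the receptor encoded by F2r, and it activates protein C when it is bound to thrombomodulin (Thbd) with the help of the endothelial protein C receptor (Procr), which slows coagulation. Clots are dissolved by plasmin, which urokinase (Plau) makes from plasminogen while it is held on its receptor (Plaur). Serpinb2 encodes an inhibitor of plasminogen activators. Monocytes and macrophages are known as a source of tissue factor and urokinase in inflamed tissue.

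Poly-A RNA was sequenced, and the table holds TPM, a measure of transcript abundance that is corrected for transcript length and for the total of the library. The values recovered as reads summed to 25457015 to 30762753 per library. The test was limma on log2(TPM + 1) with Benjamini-Hochberg adjustment over 12755 genes that reached 1 TPM in at least 2 of the 6 libraries, and all 9 genes were among them. "Rose" and "fell" stand for an adjusted p-value under 0.01, and a gene is called where it also passed the cut-off of the study, an absolute log2 fold change of 2 for LPS vs. Untr or 0.7 for Met + LPS vs. LPS. Fold changes on this scale understate the change of genes near or under 1 TPM. With 2 libraries in a group, an exact two-sided permutation test of a single gene cannot go below p = 0.333, and the p-values of limma measure the spread between libraries that the labels do not tie to separate mice. According to the study, the macrophages were seeded in duplicate, so this may be spread between cultures. The LPS response itself was plain in the labelled libraries, since the mean of Tnf went from 31.3 TPM in untreated cells to 3917 TPM with LPS and that of Nfkbia from 99.4 to 2699 TPM. The median of all tested genes differed by -0.48 (log2) between LPS and Untr and by -0.03 between Met + LPS and LPS. Scaling the libraries by their median ratio brought the first of these to -0.05, so values under that scaling are given for the members in LPS vs. Untr, and elsewhere where they change a call or a direction.

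All 7 macrophage markers were present, at a summed level of 43710 to 45600 TPM in untreated cells, 34526 to 35264 TPM with LPS and 28763 to 28884 TPM with Met + LPS. Most of this sum was Lyz2, and its direction with LPS depended on the scaling, since it was 34662 to 36088 in untreated cells, 38465 to 39085 with LPS and 32142 to 32256 with Met + LPS after median-ratio scaling. Adgre1 was higher with LPS (1684 and 1750 TPM) than in untreated cells (1510 and 1575 TPM) without scaling too. Without scaling, Csf1r, Cd68, Itgam, Lyz2 and Mertk were lower with LPS, and the Fcgr1 libraries of these groups overlapped. Mertk was at 54.1 and 51.7 TPM in untreated cells and at 21.1 and 21.8 TPM with LPS. The 5 fibroblast markers summed to at most 0.846 TPM, and the hepatocyte markers to at most 0.113 TPM, with Alb and Ttr at 0 in every library. Mast cell markers, mostly Cpa3, summed to between 0.920 and 1.56 TPM in untreated libraries and to at most 0.298 TPM in the other 4. B cell markers summed to at most 0.515 TPM and T cell markers to at most 0.137 TPM. In bulk RNA, fewer cells of a type and less RNA per cell cannot be told apart.

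The promoters of 7 of the 9 genes were looked up in RefSeq (GRCm38.p6), as windows from 250 bases before to 50 bases after the annotated start of the transcript, and searched on both strands for 9 motifs. Plau and Thbd are named only. The sequence TGANTCA, which AP-1 factors bind, lay in 5 of the 7 windows (F3, Plaur, Serpinb2, Procr and F2r), compared with 7.81% of the 32851 mouse promoters searched in the same way. The 250 bases before the start of these 5 genes, and of F10, which had none of the 9 motifs, are shown here 5′ to 3′ on the strand of the gene, with the AP-1 matches in capitals.
F3, chr3:121723287-121723536, plus strand: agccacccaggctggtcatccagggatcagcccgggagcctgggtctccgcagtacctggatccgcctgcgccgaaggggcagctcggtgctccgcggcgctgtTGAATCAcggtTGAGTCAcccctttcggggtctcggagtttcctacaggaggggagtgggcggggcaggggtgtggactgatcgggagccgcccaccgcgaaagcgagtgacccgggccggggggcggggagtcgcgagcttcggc
Plaur, chr7:24462233-24462482, plus strand: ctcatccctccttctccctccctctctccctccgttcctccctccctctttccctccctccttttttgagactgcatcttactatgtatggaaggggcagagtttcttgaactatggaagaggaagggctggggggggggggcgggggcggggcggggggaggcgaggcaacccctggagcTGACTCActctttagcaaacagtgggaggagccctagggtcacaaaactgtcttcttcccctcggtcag
Serpinb2, chr1:107511173-107511422, plus strand: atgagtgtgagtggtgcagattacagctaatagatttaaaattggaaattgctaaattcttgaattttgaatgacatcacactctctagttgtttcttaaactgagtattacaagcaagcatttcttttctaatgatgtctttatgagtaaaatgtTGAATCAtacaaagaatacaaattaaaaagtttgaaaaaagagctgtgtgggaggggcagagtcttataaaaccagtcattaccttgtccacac
Procr, chr2:155750967-155751216, plus strand: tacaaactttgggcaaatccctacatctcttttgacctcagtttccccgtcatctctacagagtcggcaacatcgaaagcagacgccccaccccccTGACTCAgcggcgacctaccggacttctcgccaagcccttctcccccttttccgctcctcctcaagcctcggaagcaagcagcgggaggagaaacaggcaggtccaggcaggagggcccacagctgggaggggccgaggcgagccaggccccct
F2r, chr13:95618467-95618716, minus strand: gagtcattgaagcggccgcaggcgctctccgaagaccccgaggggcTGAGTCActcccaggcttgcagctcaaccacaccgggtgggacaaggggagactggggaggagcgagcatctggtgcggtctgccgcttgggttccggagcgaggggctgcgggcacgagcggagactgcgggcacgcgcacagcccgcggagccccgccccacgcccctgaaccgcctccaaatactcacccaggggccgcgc
F10, chr8:13037058-13037307, plus strand: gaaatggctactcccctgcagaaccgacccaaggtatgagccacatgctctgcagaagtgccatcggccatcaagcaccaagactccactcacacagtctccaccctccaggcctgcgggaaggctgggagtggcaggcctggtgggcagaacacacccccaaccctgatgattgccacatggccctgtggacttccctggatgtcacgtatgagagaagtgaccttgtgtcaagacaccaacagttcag

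F3 carried a pair of AP-1 matches, which began 146 and 135 bases before the start. The single matches began 69 bases before the start in Plaur, 94 in Serpinb2, 154 in Procr and 204 in F2r. Serpinb2 has a second annotated start in RefSeq, whose window held the same AP-1 match 181 bases before it. Among the other motifs, a GC box of the Sp1 type (GGGCGG, 35.7% of all promoters) was found in F3, Plaur and F2r, and 2 of the 3 boxes of Plaur overlapped a match to the Egr motif (GCGNGGGCG, 5.55%). A TATA box (TATAAA, 13.6%) began 29 bases before the start of Serpinb2, and F3 had this sequence only after its start, on the other strand. A GAS element (TTCNNNGAA, 8.3%) followed 11 bases into the Serpinb2 transcript. No window matched the NF-kappaB motif (4.51% of all promoters), the cAMP response element (TGACGNCA, 3.21%), the C/EBP-ATF element (TGATGNAA, 3.97%) or the interferon-stimulated response element (GAAA, then 2 free bases and another GAAA, 3.44%). A match describes letters and does not show binding, and sequence outside of these windows was not searched.

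**Figure D1:**
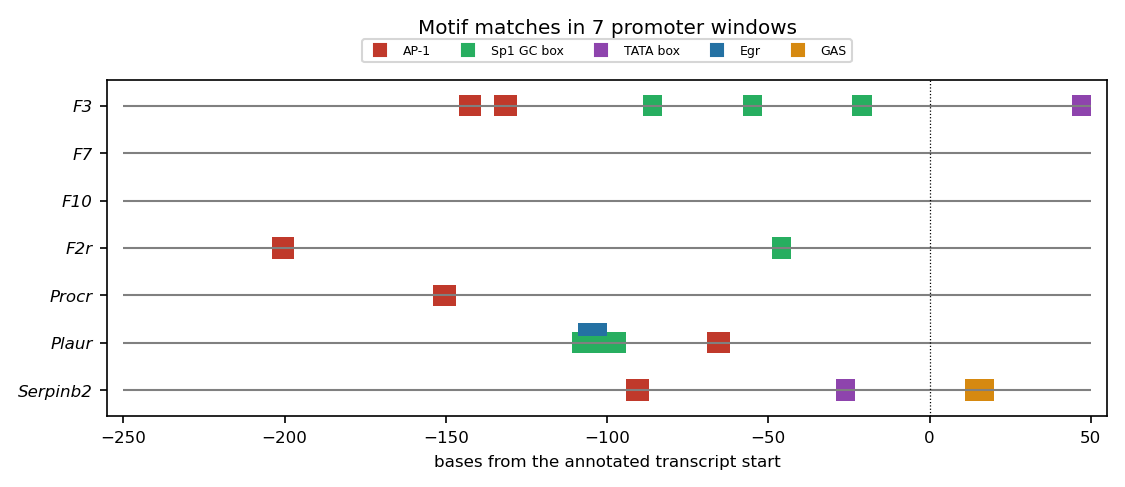
Motif matches in the promoter windows of 7 genes; each grey line is 1 window, the horizontal axis gives bases from the annotated transcript start, and coloured boxes mark matches on either strand. AP-1 matches stand before the start of F3, F2r, Procr, Plaur and Serpinb2, while the lines of F7 and F10 are empty.

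Of the genes that start and carry coagulation, F3 and F10 rose with LPS while F7 did not pass the test. Tissue factor (F3, ENSMUSG00000028128, chr3:121723537-121735048) was at 0.989 and 0.773 TPM in the untreated libraries, at 15.4 and 17.2 TPM with LPS, and at 16.1 and 10.95 TPM with Met + LPS. All 4 stimulated libraries were far above both untreated ones, and the Met + LPS libraries overlapped those with LPS. LPS raised the mean 18.5-fold, from 0.881 ± 0.152 (SD, n = 2) to 16.3 ± 1.27 TPM, with a log2 fold change of 3.20 ± 0.17 (SE) and an adjusted p of 4.86e-06 (limma). The log2 fold change was 3.49 with median-ratio scaling. For Met + LPS vs. LPS it was -0.27, with a 95% interval from -0.68 to 0.13 and an adjusted p of 0.228. This value rested on a single library, as it was -0.02 without the second Met + LPS library and -0.53 without the first.

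Factor VII and factor X lie next to each other on chromosome 8, in the same orientation and 1498 bases apart, and protein Z (Proz) follows 4237 bases after F10. Factor VII (F7, ENSMUSG00000031443, chr8:13026034-13035809) was at 3.04 and 3.23 TPM in untreated cells, at 2.83 and 2.73 TPM with LPS, and at 2.70 and 1.88 TPM with Met + LPS. These rest on 31 to 43 reads per library. The LPS libraries lay a little under the untreated ones, but the log2 fold change of -0.13 (95% interval -0.46 to 0.20) had an adjusted p of 0.398 and turned to 0.23 with median-ratio scaling. It was -0.21 for Met + LPS vs. LPS (interval -0.54 to 0.12, adjusted p = 0.255, limma).

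Factor X (F10, ENSMUSG00000031444, chr8:13037308-13056676) is the protease that turns prothrombin into thrombin. Its level was 4.38 and 3.94 TPM in untreated cells, 19.0 and 18.5 TPM with LPS, and 20.4 and 16.3 TPM with Met + LPS. Both LPS libraries were well above both untreated ones, and the Met + LPS libraries lay on either side of them. The mean rose 4.50-fold with LPS, from 4.16 ± 0.316 to 18.7 ± 0.310 TPM (log2 fold change 1.94 ± 0.11, adjusted p = 5.69e-06, limma), which is just short of the fold-change cut-off of 2, so that F10 was not called. It was 2.35 with median-ratio scaling and 2.15 with a pseudocount of 0.1, where F10 passed the cut-off. Met + LPS and LPS differed by -0.03 on the log2 scale (interval -0.29 to 0.22), and by 0.12 without the second Met + LPS library. Within each library, the ratio of F10 to F7 was 1.44 and 1.22 in untreated cells, 6.70 and 6.79 with LPS, and 7.54 and 8.67 with Met + LPS, and such a ratio does not depend on the scaling of the library. Proz, a cofactor in the inhibition of activated factor X, went the other way, from a mean of 3.35 TPM to 1.84 TPM with LPS and 0.690 TPM with Met + LPS. Its log2 fold change with LPS was -0.61 (adjusted p = 0.0031, limma) but -0.26 with median-ratio scaling (adjusted p = 0.0977), where it did not pass. The F10 to Proz ratio went from 1.06 and 1.46 to 10.1 and 10.3 and then to 22.9 and 30.6.

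The thrombin receptor PAR1 (F2r, ENSMUSG00000048376, chr13:95601803-95618487) rose with LPS, and of the 6 genes that rose it had the smallest share of the LPS difference left with metformin. It was scarce throughout, at 0.237 and 0.293 TPM in untreated cells, 1.93 and 1.27 TPM with LPS, and 0.397 and 0.542 TPM with Met + LPS. Both LPS libraries lay above the other 4, and the Met + LPS libraries lay between the groups. In reads these values were 6 and 7, then 49 and 31, then 10 and 16. LPS raised the mean 6.05-fold, from 0.265 ± 0.0399 to 1.601 ± 0.464 TPM (log2 fold change 1.03 ± 0.18, adjusted p = 0.00144, limma; 1.19 with median-ratio scaling), and the ratio of reads, corrected for depth, was 6.18 with a 95% counting interval from 3.41 to 12.1. Without the first untreated library this adjusted p was 0.0102. With metformin the log2 fold change vs. LPS was -0.81 ± 0.18 (adjusted p = 0.00988), and the read ratio was 0.295 with an interval from 0.182 to 0.464. The intervals on reads cover counting error only. This call sat at the edge of the cut-off, since its adjusted p was 0.0129 to 0.0529 when any 1 of the 6 libraries was left out and 0.0152 with a pseudocount of 0.1. Met + LPS differed from untreated cells by 0.21 on the log2 scale (adjusted p = 0.296), which is 20.9% of the LPS difference on that scale. This share depended on the scale for so scarce a gene, since it was 28.9% with a pseudocount of 0.1, 27.9% with median-ratio scaling, 31.8% with voom on reads and 43.6% with voom and that scaling, and the share of F2r was the smallest of the 6 in each of these fits. F2rl1, the neighbouring gene of the same receptor family, was under the filter in every group, with means of 0.0255, 0.319 and 0.220 TPM.

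**Figure D2:**
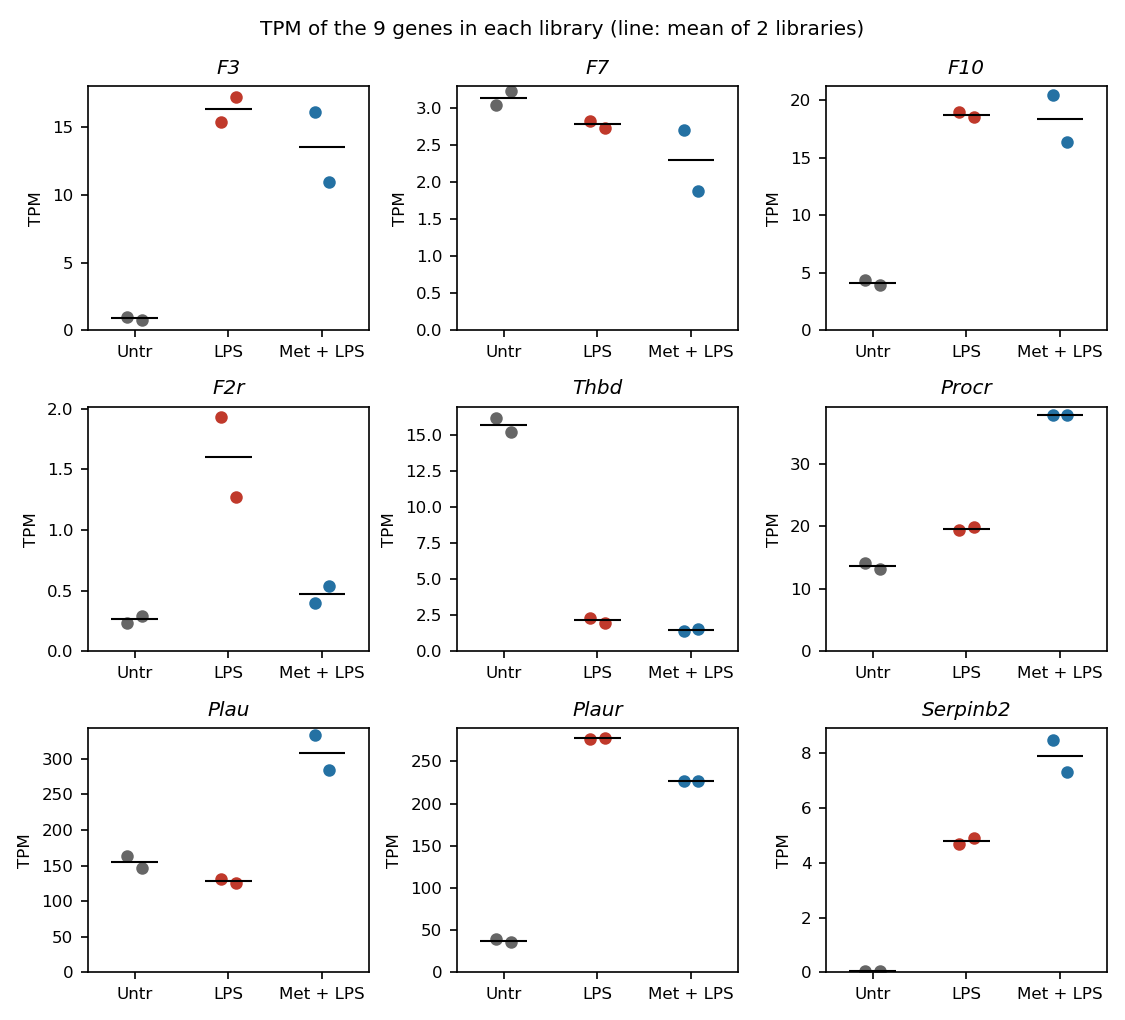
TPM of the 9 genes in each library, with 1 panel per gene, 2 points per group and a line at the group mean; every vertical axis starts at 0. With LPS, F3, F10, Plaur and Serpinb2 rose and Thbd fell in both libraries, while Plau and Procr stand highest with Met + LPS at 284 to 333 and 37.8 to 37.9 TPM.

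The 2 receptors of the protein C pathway parted. Thrombomodulin (Thbd, ENSMUSG00000074743, chr2:148404466-148408188), the thrombin-binding cofactor of protein C activation, was at 16.2 and 15.2 TPM in untreated cells, 2.33 and 1.99 TPM with LPS, and 1.39 and 1.58 TPM with Met + LPS. Both untreated libraries were far above the other 4, and the Met + LPS libraries lay under those with LPS. LPS lowered the mean 7.28-fold, from 15.7 ± 0.676 to 2.16 ± 0.241 TPM, with a log2 fold change of -2.40 ± 0.10 and an adjusted p of 1.53e-06 (limma). This was -1.99 with median-ratio scaling, just short of the cut-off. The further log2 difference of -0.35 with metformin (interval -0.58 to -0.11) had an adjusted p of 0.0247 and did not pass.

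The protein C receptor (Procr, ENSMUSG00000027611, chr2:155751117-155755471) presents protein C to the thrombin and thrombomodulin complex, and it rose in both steps. It was at 14.1 and 13.1 TPM in untreated cells, 19.4 and 19.8 TPM with LPS, and 37.8 and 37.9 TPM with Met + LPS. The 3 groups did not overlap, and the spread within each was small. The means were 13.6 ± 0.699, 19.6 ± 0.305 and 37.8 ± 0.0757 TPM. The log2 fold change was 0.50 ± 0.05 for LPS vs. Untr (adjusted p = 1.11e-04, limma; 0.95 with median-ratio scaling) and 0.91 ± 0.05 for Met + LPS vs. LPS (adjusted p = 4.34e-05), the latter a 1.93-fold increase that passed the cut-offs. Procr and Thbd stood at about equal levels in untreated cells, with a Procr to Thbd ratio of 0.873 and 0.862, and at a ratio of 8.33 and 9.98 with LPS and 27.3 and 24.0 with Met + LPS.

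Procr and Thbd are best known from endothelial cells. Of 5 endothelial markers, only Kdr reached 1 TPM in any library, Emcn was at 0 in all 6 and Cdh5 at most at 0.293 TPM. Their sum, which was nearly all Kdr, lay at 26.2 to 27.1 TPM in untreated cells, 21.4 to 23.8 TPM with LPS and 32.5 to 34.2 TPM with Met + LPS. Like Procr, this sum was higher with Met + LPS than with LPS, which came from Kdr, since Cdh5, Tek and Esam overlapped between these groups. Under median-ratio scaling it was higher with LPS than in untreated cells as well, as Procr was (20.7 to 21.5, 23.7 to 26.6 and 36.3 to 38.2). The sum of 7 neutrophil markers was also highest with Met + LPS (27.7 to 30.9, 24.5 to 26.2 and 41.0 to 42.4 TPM). Of these, Ly6g, Camp and Retnlg stayed under 1 TPM in every library. Elane and Mpo overlapped between untreated cells and Met + LPS, with Elane at 15.2 and 17.4, then 15.2 and 16.1 TPM. S100a8 and S100a9 were higher with Met + LPS than in untreated cells. S100a9 went from 5.79 and 4.01 to 16.7 and 11.9 TPM. Elane, Mpo, S100a8 and S100a9 were all higher with Met + LPS than with LPS. After median-ratio scaling the neutrophil sum was higher with LPS (27.2 to 29.2) than in untreated cells (at most 24.5). The sum of 6 megakaryocyte and platelet markers, mostly Pf4, was highest with LPS (32.4 to 32.6, 40.5 to 43.9 and 28.3 to 32.2 TPM), with Gp1bb at 0 throughout. The part of endothelial, neutrophil and megakaryocyte RNA in the levels of the 9 genes was not tested.

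In the plasminogen system, the receptor (Plaur) and the inhibitor Serpinb2 rose with LPS, while urokinase rose from LPS to Met + LPS. Urokinase (Plau, ENSMUSG00000021822, chr14:20836660-20843385) was the most abundant of the 9 genes in untreated cells, at 164 and 147 TPM, and was at 132 and 125 TPM with LPS and at 333 and 284 TPM with Met + LPS. The LPS libraries lay under and the Met + LPS libraries far above the untreated ones. LPS vs. Untr gave a log2 fold change of -0.27 ± 0.09 (adjusted p = 0.0219, limma), which did not pass, and its sign depended on the scaling, with 0.21 and an adjusted p of 0.0631 under median-ratio scaling. Met + LPS exceeded LPS 2.40-fold, at 308 ± 34.7 against 128 ± 4.75 TPM (log2 fold change 1.25 ± 0.09, adjusted p = 8.37e-05), and exceeded untreated cells 1.99-fold (0.98, adjusted p = 4.70e-05; 1.48 with median-ratio scaling).

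The urokinase receptor (Plaur, ENSMUSG00000046223, chr7:24462484-24475968) concentrates urokinase at the cell surface. It was at 39.2 and 35.9 TPM in untreated cells, 277 and 278 TPM with LPS, and 226 and 227 TPM with Met + LPS. The groups were far apart from untreated cells, and the Met + LPS libraries lay slightly but evenly under those with LPS. Plaur rose 7.38-fold with LPS (log2 fold change 2.85 ± 0.05, adjusted p = 2.52e-08, limma; 3.33 with median-ratio scaling). It fell by 0.29 on the log2 scale from LPS to Met + LPS (SE 0.05, adjusted p = 0.00259), which was under the fold-change cut-off, and the adjusted p was 0.017 to 0.0184 when a library of either group was left out.

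PAI-2 (Serpinb2, ENSMUSG00000062345, chr1:107511423-107535478), an inhibitor of urokinase that is made by activated macrophages, was nearly silent in untreated cells. It was at 0.0560 and 0.0594 TPM there, or 1 read in each library, at 4.70 and 4.90 TPM with LPS, and at 8.50 and 7.31 TPM with Met + LPS. The 3 groups did not overlap, and the Met + LPS libraries were highest. The log2 fold change for LPS vs. Untr was 2.45 ± 0.11 (adjusted p = 2.01e-06, limma; 2.598 with median-ratio scaling), and the ratio of reads, corrected for depth, was 84.3 with a counting interval from 23.0 to 702. Metformin raised it a further 1.65-fold, from 4.80 ± 0.143 to 7.91 ± 0.843 TPM (log2 fold change 0.62 ± 0.11, adjusted p = 0.00351), which was under the cut-off of 0.7, and the adjusted p was 0.01 to 0.0265 when any 1 library was left out. The exons of Serpinb2 overlap Serpinb10, annotated as a polymorphic pseudogene on the same strand with at most 0.0393 TPM, and 88.8% of its 31-base words occur in no other gene, compared with at least 95.6% in the other 8 genes.

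Within a library, urokinase outnumbered its receptor in untreated cells, with a Plau to Plaur ratio of 4.17 and 4.08. This turned to 0.475 and 0.450 with LPS and back above 1 with Met + LPS, at 1.47 and 1.25. The ratio of Serpinb2 to Plau was 0.000342 and 0.000405 in untreated cells, where it rests on 1 read of Serpinb2 per library, 0.0357 and 0.0392 with LPS, and 0.0256 and 0.0258 with Met + LPS. The ratio of F3 to Thbd, an initiator of coagulation and a brake on it, was 0.0611 and 0.0508 in untreated cells, 6.61 and 8.65 with LPS, and 11.6 and 6.94 with Met + LPS. The last 2 groups overlapped in this ratio.

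**Figure D3:**
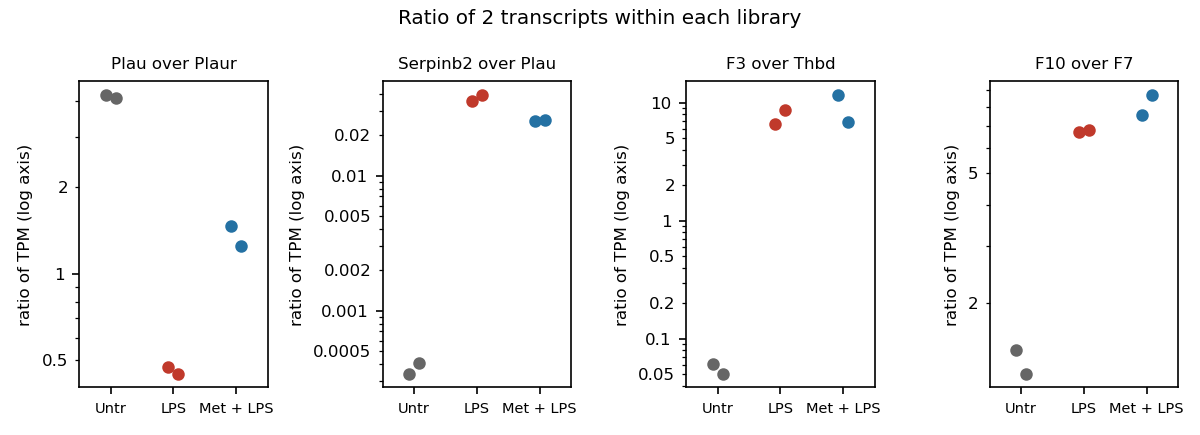
Ratio of 2 transcripts in TPM within each library on logarithmic axes, 1 point per library. The Plau to Plaur ratio goes from above 4 to under 0.5 with LPS and to 1.25 and 1.47 with Met + LPS, and the Serpinb2 to Plau ratio is highest with LPS at 0.0357 and 0.0392.

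Counted together, 6 of the 9 genes rose with LPS (F3, F10, F2r, Plaur, Serpinb2 and Procr) and 1 fell (Thbd), while F7 and Plau did not pass. Over all tested genes 76.3% passed, as 16.2% rose and 60.1% fell, and with median-ratio scaling 29.1% rose and 29.5% fell. The split of the 9 genes was 6 to 1 under both scalings. With the fold-change cut-off added, 4 of the 9 were called, F3, Plaur and Serpinb2 as higher and Thbd as lower, compared with 6.08% of all tested genes (3.72% higher and 2.37% lower). Under median-ratio scaling 4 were called as well, with F10 in place of Thbd. The median log2 fold change of the 9 genes was 1.03, beside -0.48 for all tested genes. In all 9 genes the libraries of the 2 groups did not overlap, but this was true of 91.6% of all tested genes as well. The 9 genes and the pathway list were chosen with earlier results known, so their shares here and below are a description only.

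In Met + LPS vs. LPS, 3 of the 9 genes rose (Plau, Procr and Serpinb2), 2 fell (F2r and Plaur) and 4 did not pass (F3, F7, F10 and Thbd). Among all tested genes 32.6% passed, 14.5% as higher and 18.0% as lower. Plau and Procr were called as higher and F2r as lower, 3 of 9 compared with 8.28% of all tested genes (4.19% higher and 4.09% lower). The median log2 fold change of the 9 genes was -0.21, beside -0.03 for all tested genes, and the libraries did not overlap in 7 of them, beside 73.8% of all. In Met + LPS vs. Untr, which shares its libraries with the other comparisons, 6 genes were higher and 1 lower, beside 75.1% of all tested genes that passed, 16.3% as higher and 58.8% as lower (31.4% and 32.2% with median-ratio scaling), and the libraries did not overlap in any of the 9, beside 90.7% of all. For the 4 genes called with LPS, the difference from untreated cells remained when metformin was given first. It was smaller for Plaur and larger for Serpinb2, which both passed in Met + LPS vs. LPS. On the log2 scale, Met + LPS vs. Untr was 2.93 for F3, 2.56 for Plaur, 3.07 for Serpinb2 and -2.75 for Thbd, which came to 91.5%, 89.8%, 125% and 114% of the difference with LPS alone. With median-ratio scaling these log2 values were 3.22, 3.05, 3.23 and -2.34. The share of Serpinb2 depended on the scale, since it was 114% with a pseudocount of 0.1 and 112% with voom on reads.

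**Figure D4:**
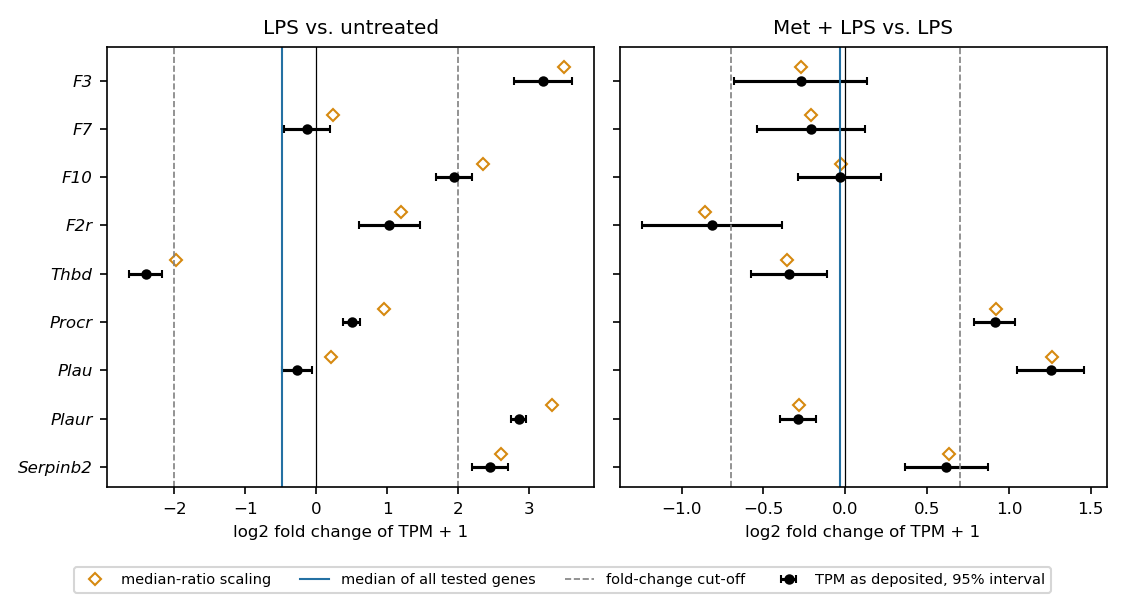
Log2 fold changes of TPM + 1 of the 9 genes in LPS vs. untreated (left) and Met + LPS vs. LPS (right), with 95% intervals from limma as black bars, median-ratio scaling as open diamonds, the median of all tested genes as a blue line and the cut-offs as dashed lines. F3, Plaur and Serpinb2 lie right of the upper cut-off and Thbd left of the lower one with LPS, and Plau and Procr lie right of the cut-off with Met + LPS.

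The order of the 9 transcripts by TPM in untreated cells was Plau, Plaur, Thbd, Procr, F10, F7, F3, F2r and Serpinb2. With LPS it was Plaur, Plau, Procr, F10, F3, Serpinb2, F7, Thbd and F2r, and with Met + LPS it was the same except that Plau stood before Plaur. Neighbours in these orders did not overlap between libraries, but Procr and F10 with LPS (19.4 and 19.0 TPM at their nearest), Thbd and F2r with LPS (1.99 and 1.93 TPM) and F10 and F3 with Met + LPS (16.3 and 16.1 TPM) came close to it.

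Another 45 genes of the pathway were examined, of which 18 were tested and 27 lay under the filter. Among the latter, 12 were listed at 0 in every library, and these included prothrombin (F2), the 3 fibrinogen chains (Fga, Fgb and Fgg), plasminogen (Plg) and factors XI and XII (F11 and F12), which the liver makes. The highest single value among the 27 was 1.10 TPM (Tfpi2). Of the 18 tested genes, 4 rose and 13 fell with LPS and 1 (F9) did not pass, beside 16.2% and 60.1% of all tested genes that rose and fell. This split depended on the scaling, since it was 5 higher and 3 lower with median-ratio scaling, and the median log2 fold change of -0.46 was close to that of all tested genes.

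Of these 18 genes, 1 passed the cut-offs with LPS, a share near the 6.08% of all tested genes. This gene, tissue plasminogen activator (Plat), the other protease that activates plasminogen, was at 0.0632 and 0.0447 TPM in untreated cells, 19.4 and 17.3 TPM with LPS, and 11.9 and 12.1 TPM with Met + LPS. Untreated cells thus had 3 and 2 reads, the ratio of reads, corrected for depth, was 344 with a counting interval from 147 to 1060, and the log2 fold change was 4.20 (adjusted p = 6.06e-08, limma).

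In Met + LPS vs. LPS, 3 of the 18 rose, 10 fell and 5 did not pass, beside 14.5% of all tested genes that rose and 18.0% that fell. The split was the same under median-ratio scaling, and the median log2 fold change was -0.26. Those past the cut-offs, 4 of 18 beside 8.28% of all tested genes, were Vwf as higher and Pros1, Proz and Ggcx as lower. Von Willebrand factor (Vwf), the platelet-tethering protein of endothelial cells and megakaryocytes, was at 45.4 and 49.1 TPM in untreated cells, 32.1 and 32.0 TPM with LPS, and 61.9 and 68.3 TPM with Met + LPS (log2 fold change vs. LPS 0.996, adjusted p = 5.68e-05, limma). Kdr, the expressed endothelial marker, went the same way in TPM as deposited, at 26.9 and 25.6 TPM in untreated cells, 21.0 and 23.3 TPM with LPS and 33.7 and 32.1 TPM with Met + LPS, while Emcn and Gp1bb were at 0. The first step depended on the scaling, since Vwf in LPS vs. Untr went from -0.54 to -0.07 (adjusted p = 0.35, limma) with median-ratio scaling. Scaled Kdr was higher with LPS (23.3 to 26.0) than in untreated cells (20.3 to 21.3). The sum of the megakaryocyte markers, mostly Pf4, went against Vwf in both steps in TPM as deposited. Pf4 itself was at 42.3 and 38.8 TPM with LPS and at 25.5 and 29.8 TPM with Met + LPS. The scarcer markers Ppbp and Itga2b were instead higher with Met + LPS than with LPS, given as values without a test. Ppbp was at 1.09 and 1.39 TPM with LPS and 1.83 and 1.67 TPM with Met + LPS, and Itga2b at 0.434 and 0.301, then 0.679 and 0.539 TPM. Gp9 and Gp6, which were scarcer still, overlapped between these groups. The part of either cell type in the level of Vwf was not tested.

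Plat fell by 0.57 on the log2 scale from LPS to Met + LPS (adjusted p = 0.00169, limma), under the cut-off. Protein S (Pros1), the cofactor of activated protein C, was at 33.4 and 32.2 TPM with LPS and 17.7 and 16.1 TPM with Met + LPS (-0.92, adjusted p = 5.16e-05). Proz and Ggcx, the carboxylase that modifies the vitamin K-dependent clotting proteins, fell by 0.75 and 0.71. Ggcx was at 3.04 TPM in both libraries with LPS and at 1.84 and 1.15 TPM with Met + LPS. Both calls sat near the cut-offs, since without the expression filter the adjusted p was 0.0145 for Proz and 0.0346 for Ggcx (limma). The log2 fold change of Proz stayed at -0.73 to -0.77 when any 1 library of these groups was left out. That of Ggcx depended on the Met + LPS libraries, with -0.91 without the first and -0.51 without the second.

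**Figure D5:**
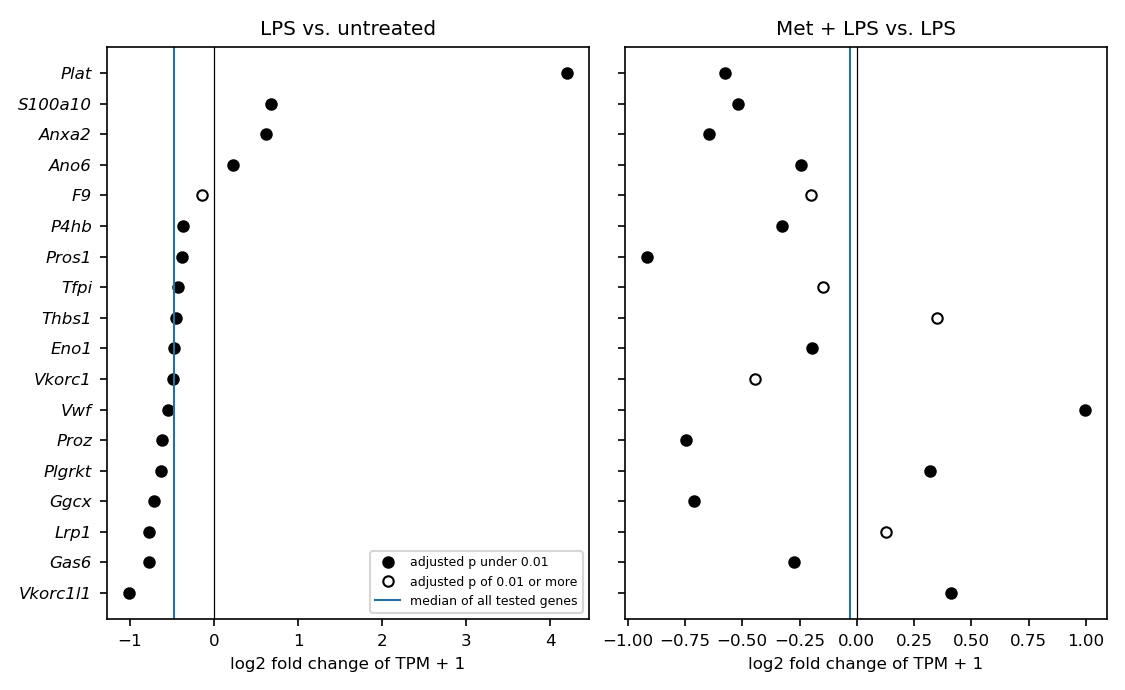
Log2 fold changes of TPM + 1 of the 18 other tested pathway genes in both comparisons, ordered by LPS vs. untreated; filled points have an adjusted p under 0.01 (limma) and the blue line marks the median of all tested genes. Plat stands far right with LPS, and with Met + LPS Vwf stands right while Pros1 stands left.

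Among the most abundant of the remaining genes, annexin A2 and S100a10, which form a surface complex that binds plasminogen and Plat, rose with LPS and fell with Met + LPS. Anxa2 went from a mean of 599 TPM to 917 TPM and 586 TPM (log2 fold changes 0.61 and -0.65) and S100a10 from 308 TPM to 495 TPM and 345 TPM (0.68 and -0.52). In Met + LPS vs. Untr, Anxa2 differed by -0.03 (adjusted p = 0.453, limma), but by 0.46 with median-ratio scaling (adjusted p = 3.5e-05, limma). Gas6, a vitamin K-dependent ligand of TAM receptors, had means of 1022, 597 and 494 TPM, and the clearance receptor Lrp1, which takes up complexes of proteases and inhibitors, had 582, 342 and 373 TPM. The disulfide isomerase P4hb was at 589, 457 and 363 TPM and the plasminogen receptor Eno1 at 193, 139 and 121 TPM. Eno1 is uncertain, since only 71.5% of its 31-base words occur in no other gene. With median-ratio scaling, LPS vs. Untr turned from -0.37 to 0.12 for P4hb and from -0.48 to 0.01 for Eno1, while Gas6 and Lrp1 were lower with LPS under both scalings.

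The genes most like each member over the 6 libraries, by the distance of their centred log2(TPM + 1) values, are given as a description. They were AI504432, AC167363.2 and Lhx2 for F3 (distances 0.345 to 0.382), Tnfsf14, Trim13 and Gm45515 for F10 (0.161 to 0.235), and Gm17590, Rhbdf1 and Hmgn3 for F2r (0.224 to 0.250). For the plasminogen genes they were Pgm5, Srfbp1 and Chd2 for Plau (0.147 to 0.201), Zup1, Ptch1 and Nt5c3 for Plaur (0.148 to 0.157), and Jag1, Sowahc and Ppp1r15a for Serpinb2 (0.196 to 0.292). Spata2l, Gm10521 and Ccnf were nearest to Thbd (0.171 to 0.253). None of these genes belongs to the pathway list.

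Set beside the promoters shown above, the 5 genes with an AP-1 match (F3, Plaur, Serpinb2, Procr and F2r) had all risen with LPS. F10, without any of the 9 motifs in its window, rose 4.50-fold as well, and F7, also without a match, did not pass the test. F7 was thus the only gene with a window that had not risen. Plau, which did not pass, and Thbd, which fell, had no window to search. The motifs were chosen with earlier results known, and a tie between the match and the LPS response was not tested. With metformin the 5 genes parted, since Procr and Serpinb2 rose, F2r and Plaur fell and F3 did not pass, so that the match did not go with 1 direction in that comparison.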

How the data were processed

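The deposited values are TPM for 54532 genes. Per the labels, the authors aligned the reads to GRCm38 with STAR 2.6.1d, handled alignments with SAMtools 1.9 and counted reads per gene with featureCounts (Subread 1.6.3), and replicates were not pooled. How counts became TPM is not given in the sources used here. Groups are those of the labels. The result of 1 gene of the pathway list is not reported here. The 9 genes, the pathway list, the markers and the motifs were chosen with earlier results of these data known.

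The 12755 genes that reached 1 TPM in 2 or more of the 6 libraries were passed to limma 3.58.1 (R 4.3.3) as log2(TPM + 1). The fit held all libraries, had no covariate and 3 residual degrees of freedom, and used the trended eBayes step and Benjamini-Hochberg adjustment. The cut-offs were those of the study. TPM holds no total RNA per cell. TPM multiplied by exon length, available for 54495 genes, gave whole reads for 96.3% to 96.6% of the values above 0 (tolerance 0.05 reads), and these reads served for limma voom, for counting intervals (95%, exact binomial) and for depth. Reads were not tied to molecules, so intervals cover counting error only. The test was tested on simulated data. Few genes differed between groups there, unlike in these libraries, so it cannot show how the test does here. Promoters came from RefSeq (GRCm38.p6). Named genes were the 9 members, pathway genes past the cut-offs (at most 10), the 6 most abundant of the rest, and for each member that differed by 1 or more (log2) the 3 nearest profiles by Euclidean distance. Other genes named, such as Tfpi2 and F2rl1, were chosen after their values were seen. Alternatives were another pseudocount, other filters, scaling, cut-offs and fits, and leaving out each library. Tables were made with Python 3.11.15, numpy 2.4.6, pandas 2.3.3 and scipy 1.17.1, and plots with matplotlib 3.10.9.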

Additional observations from a re-analysis of the deposited data

How the results depend on the processing

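Of the log2 fold changes of the 9 genes under all alternatives, 388 kept their direction and their side of the adjusted p cut-off, 25 no longer passed it, 6 passed it only there and 7 turned in sign. The direction was fixed in advance under many alternatives, where only the p-value or its cut-off could differ. These were the other filters and adjusted p cut-off, the replicate block, the untrended fit and the fit of the compared groups alone. The same holds where the library left out belonged to neither compared group. The sign turned for F7 in LPS vs. Untr with median-ratio scaling (0.23) and with voom and that scaling (0.35), for F7 in Met + LPS vs. Untr (0.021 and 0.044), for Plau in LPS vs. Untr (0.21 and 0.24), and for F10 in Met + LPS vs. LPS when a library was left out (-0.19 to 0.12). The scaled libraries are those in which the shift of the median gene was taken out. Plau in LPS vs. Untr passed the cut-off in opposite directions with voom (-0.25, adjusted p = 0.00143) and with scaled voom (0.24, adjusted p = 0.00274).

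In LPS vs. Untr, 4 to 6 members were called under every alternative (4 without any 1 library). In Met + LPS vs. LPS, 1 member was called at a fold-change cut-off of 1, in place of 3, and 2 when any library was left out, since F2r was lost. There, 3 members passed the adjusted p cut-off alone with a pseudocount of 0.1, in place of 5, 2 without a filter, and 2 to 3 when a library was left out. The calls lost were those of F2r, Plaur and Serpinb2, and the cause was not tested. Of the pathway list, 2 genes were called without a filter, in place of 4, 0 at a cut-off of 1 (Vwf is at 0.996), and 2 to 3 when a library was left out, with Proz and Ggcx lost. In LPS vs. Untr, 2 genes of that list were called at a cut-off of 1, in place of 1, with Vkorc1l1 added at -1.02. F2r and F7 did not reach a filter of 5 TPM, so they have no value there.

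Same-numbered libraries did not deviate together (correlations of -0.00365, 0.0284 and 0.00624 over 12755 genes). With 2 libraries in a group, this cannot show whether they were paired. A replicate block in the fit took the adjusted p of Plau in LPS vs. Untr from 0.0219 to 0.00192 (limma). With the replicate block, 4 members were called in LPS vs. Untr and 2 in Met + LPS vs. LPS. By adjusted p alone 8, 4 and 7 members passed in LPS vs. Untr, Met + LPS vs. LPS and Met + LPS vs. Untr, and 1 and 4 genes of the pathway list were called. Depth limits the levels of F2r outside the LPS group and of F3, Serpinb2 and Plat in untreated cells, which rest on 1 to 19 reads per library.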

Other observations

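Some genes of the pathway under the filter had few reads and are given as values with no test, chosen after they were seen. Factor V (F5), the cofactor of activated factor X, had 8 and 9 reads in untreated cells, 8 and 5 with LPS, and 23 and 26 with Met + LPS, or means of 0.155, 0.117 and 0.402 TPM. The C1 inhibitor Serping1 had means of 0.0866, 0.403 and 0.130 TPM in the same order. Tfpi2, a relative of the tissue factor pathway inhibitor, had 0.233, 0.688 and 0.890 TPM, and its libraries with LPS and with Met + LPS overlapped. Among the tested genes, Tfpi itself, which inhibits tissue factor and activated factor X, was at 11.8 ± 0.536 TPM in untreated cells, 8.54 ± 0.509 TPM with LPS and 7.60 ± 0.341 TPM with Met + LPS. Its log2 fold change of -0.43 with LPS passed (adjusted p = 0.00125, limma) but was 0.02 with median-ratio scaling, and that of -0.15 with metformin did not pass (adjusted p = 0.138).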
